A study of Mus musculus with 16 samples.

Results

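Ribosome biogenesis genes encode the machinery that builds ribosomes in the nucleolus. RNA polymerase I transcribes the ribosomal RNA precursor, box C/D and box H/ACA small nucleolar ribonucleoproteins modify it, and large processing complexes cut and fold it into the precursors of the small and the large ribosomal subunit. Many of these genes are known targets of the transcription factor Myc, which binds the DNA motif CACGTG (the E-box) together with its partner Max. Embryonic stem (ES) cells divide quickly and are known for high ribosome production, and c-Myc is also one of the factors used to reprogram fibroblasts into induced pluripotent stem (iPS) cells.

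The 44 genes described here were chosen by name as members of this machinery, and every feature (a 60-base oligonucleotide spot) that carries a member's gene name was taken from 1-colour Agilent whole mouse genome arrays. They were read by 70 of the 41174 features on the array, and the array named 21344 genes in all. By role, 7 members act in RNA polymerase I transcription, 7 are nucleolar chaperones or box C/D proteins, 3 are box H/ACA proteins, 12 process the small subunit precursor and 15 process the large subunit precursor. For 69 of the 70 features at least 1 array gave a signal well above background, and the exception was the second feature of Polr1b. The brightest such feature stood for each gene, and it was well above background on all 16 arrays for all 44 members. Features of different genes were never compared in level.

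The 16 arrays each held RNA from a single clone or culture. They comprised 1 array of mouse embryonic fibroblasts (MEF), 2 of ES cell lines (B6ES, from C57BL/6, and TT2, from C57BL/6 x CBA), 1 of the retrovirus-derived iPS line 20D17 (C57BL/6 x DBA), 4 of clones with iHAC1 (iHAC1-iPS, named 1-A3, 1-B, 1-C3, 1-D6), 4 of clones with iHAC2 (iHAC2-iPS, named 2-B1, 2-C6, 2-E, 2-N) and 4 of iHAC-free iPS clones (F-B1, F-C5, F-E4, F-N7). iHAC1 is a human artificial chromosome (HAC), a vector that is kept apart from the host chromosomes, and it carries 2 copies each of Klf4, c-Myc, Sox2 and Oct4 cDNA under the constitutive CAG promoter. iHAC2 carries the same cassettes, 2 additional copies of Oct4 and a short hairpin RNA against p53. Each iHAC-free clone was sorted, as cells without the vector's EGFP, from the iHAC2-iPS clone named beside it in the same order (F-B1 from 2-B1, F-C5 from 2-C6, F-E4 from 2-E, F-N7 from 2-N). All HAC-derived clones were of C57BL/6 background, and mimics of miR-294 and miR-295 were also used in the reprogramming. According to the paper, ES cells and microcell hybrid clones (made by chromosome transfer) were kept on mitomycin-C-treated MEF feeders. Fused cells from the vector transfer were also plated onto feeders. The arrays lay on 4 slides, and the file headers name 2 versions of the image-reading software (Feature Extraction). The arrays read by 1 version are called a session below, and scan dates were not used. MEF, ES, 20D17 and iHAC1-iPS were in the first session, iHAC2-iPS and iHAC-free iPS in the second. A difference between clones of the first and the second session therefore cannot be told apart from a difference between the sessions. The ES lines, 20D17 and 1-D6 shared 1 slide, and each slide of the second session held 2 iHAC2-iPS and 2 iHAC-free iPS clones.

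Every value below is a log2 signal after subtraction of that array's 75th percentile, given as the log2 difference from the mean of the ES lines unless another comparison is named. The test was limma's moderated test in a single fit of all 6 groups over 31423 features. A feature was called where its Benjamini-Hochberg adjusted p was below 0.05. The number of arrays limits the precision, each clone was measured once, and the p-values measure the spread between clones. The share of spots well above background ran from 54.2% to 65.8%, and the iHAC2-iPS arrays (54.2% to 59.9%) included the lowest.

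The vector's Myc was checked first, since the members were to be related to it. The array reads Myc with 3 features of 1 Myc transcript, and their position decides which Myc RNA they can see. They are printed with their place on mouse chromosome 15 (build mm9, as the array files give it, plus direction of the transcript); capitals mark the stop codon that ends the longest open frame shared by the first feature and the second. The third begins at base 53 after that stop codon, in the 3' untranslated region (UTR), and only its first 30 bases are shown. How much untranslated sequence the vector's cDNA holds is not given in the sources used here.
Myc coding feature, transcript bases 1407 to 1466, chr15:61820925-61820984: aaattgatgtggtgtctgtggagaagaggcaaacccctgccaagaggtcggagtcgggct
Myc stop-codon feature, transcript bases 1899 to 1958, chr15:61821417-61821476, first 47 bases: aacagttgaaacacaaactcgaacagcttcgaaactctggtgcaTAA
Myc 3' UTR feature, transcript bases 1998 to 2057, chr15:61821516-61821576, first 30 bases: gttccttctgacagaactgatgcgctggaa

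Myc RNA read in the coding sequence rose far above ES in the clones with a vector, and in the clones that had lost it each value lay below both ES lines. The coding feature stood at 5.61, 4.59, 4.75 and 5.49 in iHAC1-iPS, with the clones in the order given above, which every set of 4 values follows. It stood at 2.00, 4.38, 2.39 and 2.82 in iHAC2-iPS. It stood at -1.47, -2.12, -1.59 and -1.55 in iHAC-free iPS. The groups did not overlap, and MEF at -0.02 and 20D17 at 0.22 lay close to ES. The log2 difference between iHAC2-iPS and iHAC-free iPS was 4.58 ± 0.43 (SE, n = 4 and 4, limma adjusted p = 0.0011), a fold of 23.9, and that between iHAC1-iPS and ES was 5.11 ± 0.53 (SE, n = 4 and 2, limma adjusted p = 0.000123). iHAC1-iPS exceeded iHAC2-iPS by 2.21 ± 0.43 (SE, n = 4 and 4, limma adjusted p = 0.00255). The feature across the stop codon gave 4.15 ± 0.39 for iHAC2-iPS against iHAC-free iPS (SE, n = 4 and 4, limma adjusted p = 0.0011).

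The 3' UTR feature moved the other way. It stood at -3.70, -2.99, -2.74 and -2.13 in the iHAC1-iPS clones, at -1.36, -2.23, -2.63 and -2.04 in the iHAC2-iPS clones and at -1.11, -1.69, -1.30 and -1.06 in the iHAC-free clones. All 12 clones lay below both ES lines, while MEF stood at -0.08 and 20D17 at 0.35. The decrease against ES was called in iHAC1-iPS (-2.89 ± 0.40, SE, n = 4 and 2, limma adjusted p = 0.000621) and in iHAC2-iPS (-2.07 ± 0.40, SE, n = 4 and 2, limma adjusted p = 0.0112). In iHAC-free iPS it was -1.29 ± 0.40 (SE, n = 4 and 2, limma adjusted p = 0.117), and the coding feature there gave -1.68 ± 0.53 (SE, n = 4 and 2, limma adjusted p = 0.123), so that neither passed the test. Against iHAC-free iPS, iHAC2-iPS differed by -0.77 ± 0.32 in the 3' UTR feature (SE, n = 4 and 4, limma adjusted p = 0.235). The Myc calls of iHAC2-iPS against ES were lost when either ES line was left out (limma adjusted p from 0.0659 to 0.088 over the 3 features) and when only those groups were fitted (0.113 to 0.138).

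**Figure D1:**
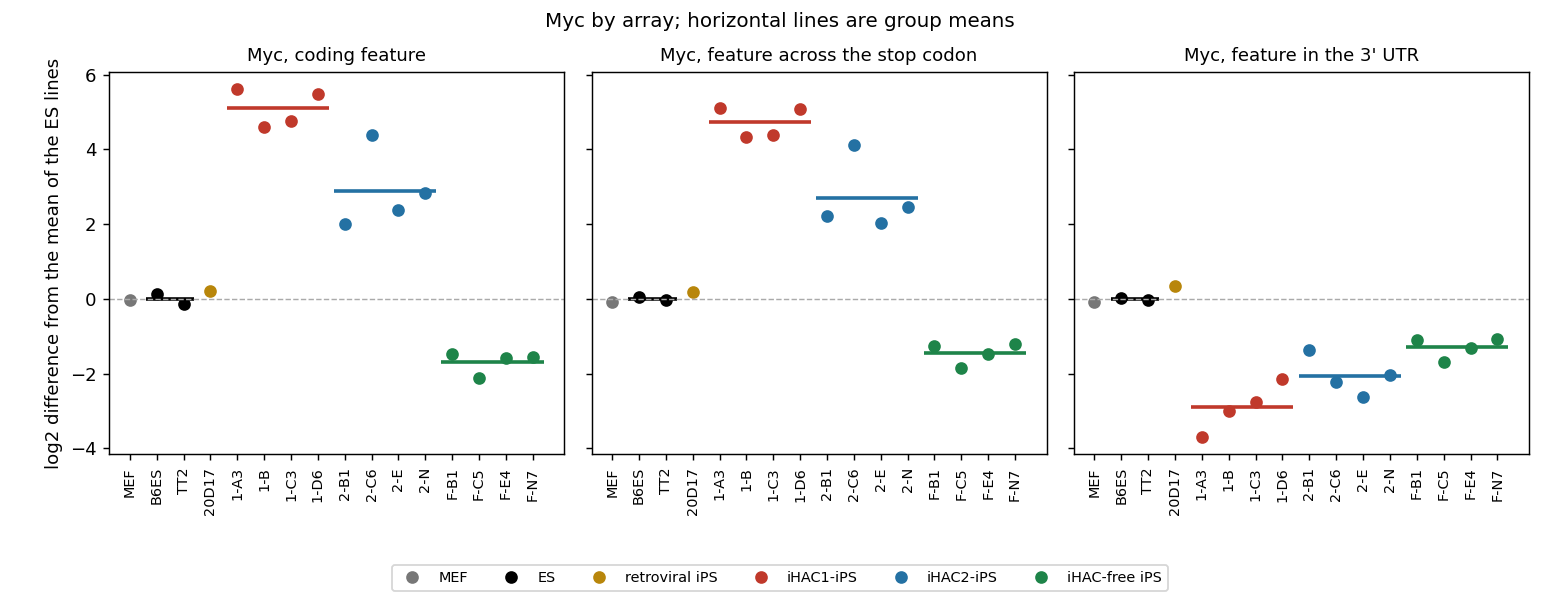
Myc on each of the 16 arrays, read by 3 features; the y axis is the log2 difference from the mean of the ES lines, points are arrays and horizontal lines are group means. The coding and stop-codon features separate iHAC1-iPS, iHAC2-iPS and iHAC-free iPS, and the 3' UTR feature is below ES in all 12 HAC-derived clones.

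Other Myc family members were read alongside. Mycn, the family member that ES cells are known to express strongly, was read by 2 features. Its brighter feature stood at -6.91, -3.49, -3.00 and -5.77 in the iHAC1-iPS clones, -1.14, -1.72, -2.41 and -1.54 in the iHAC2-iPS clones and -0.51, -0.80, -0.88 and -0.63 in the iHAC-free clones, with MEF at -4.01 and 20D17 at -1.10. The difference of iHAC1-iPS from ES was -4.79 ± 0.84 (SE, n = 4 and 2, limma adjusted p = 0.00247), and those of iHAC2-iPS (adjusted p = 0.189) and iHAC-free iPS (adjusted p = 0.671) were not called by limma. Its second feature gave -4.89 in iHAC1-iPS (limma adjusted p = 0.00104), with no call in the others. Both features were also called lower in iHAC1-iPS than in iHAC2-iPS, by -3.09 and -2.60. Mycl stood at 0.38, 0.10, 1.02 and 0.51 in iHAC1-iPS, 0.45, -0.72, -0.08 and -0.86 in iHAC2-iPS and 0.38, -0.33, 0.15 and -0.42 in iHAC-free iPS, with MEF at -0.76, 20D17 at -0.05 and no call in the 6 comparisons. Among the 11 Myc network genes, Mxd4 and Mxi1, which are Max-binding antagonists of Myc, rose in iHAC1-iPS against ES by 2.25 (limma adjusted p = 0.00142) and 1.15 (limma adjusted p = 0.000481), and Mga, another Max partner, fell by 0.72 (log2 difference -0.72, limma adjusted p = 0.0278). Mxi1 was also called higher in iHAC2-iPS (1.18, limma adjusted p = 0.00254) and in iHAC-free iPS (0.84, limma adjusted p = 0.0409). Max itself differed from ES by -0.01 in iHAC1-iPS, -0.65 in iHAC2-iPS and -0.63 in iHAC-free iPS, with no call.

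The promoters of the members were searched for the Myc motif because it is the letters through which Myc and Max bind. Promoter windows of 300 bases (250 before and 50 after the transcription start, RefSeq, build GRCm38.p6) were found for 39 of the 44 members. The motif CACGTG, which reads the same on both strands, was in the window of 7 of these 39 genes (17.9%), against 8.09% of the 27025 genes in the table. They were Imp4, Nop2, Pes1, Mybbp1a, Tsr1, Rrn3 and Wdr43, and Rrn3 held it at 2 places. A match is only a match of letters, and the windows are short. The 4 matches that lie before the start are shown with their surroundings, 50 bases each on the plus strand in the direction of the gene, with the motif in capitals and positions counted from the start.
Rrn3, -215, chr16:13780462-13780511: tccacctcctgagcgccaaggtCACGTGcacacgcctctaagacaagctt
Rrn3, -48, chr16:13780629-13780678: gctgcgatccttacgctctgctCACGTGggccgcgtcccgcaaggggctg
Nop2, -60, chr6:125131801-125131850: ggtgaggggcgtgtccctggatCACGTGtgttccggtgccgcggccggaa
Imp4, -121, chr1:34439686-34439735: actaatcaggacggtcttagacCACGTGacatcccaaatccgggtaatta

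The levels of the members did not separate the groups that vector Myc separated. Their median over 44 genes was below ES in each of the 12 HAC-derived clones, with the vector or without it. It was -0.59, -0.51, -0.21 and -0.38 in iHAC1-iPS, a mean of -0.42 ± 0.17 (SD, n = 4). It was -0.74, -0.18, -0.59 and -0.20 in iHAC2-iPS, a mean of -0.43 ± 0.29 (SD, n = 4). It was -0.36, -0.80, -0.29 and -0.47 in iHAC-free iPS, a mean of -0.48 ± 0.23 (SD, n = 4). The ES lines lay at 0.04 and -0.04, 20D17 at -0.23 and MEF, by far the lowest, at -1.41. The ranges of the HAC-derived groups overlapped, although their Myc coding signal did not overlap at all. The median over the 19941 features above background on all arrays lay between -0.06 and 0.03 in every array except MEF (-0.18).

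**Figure D2:**
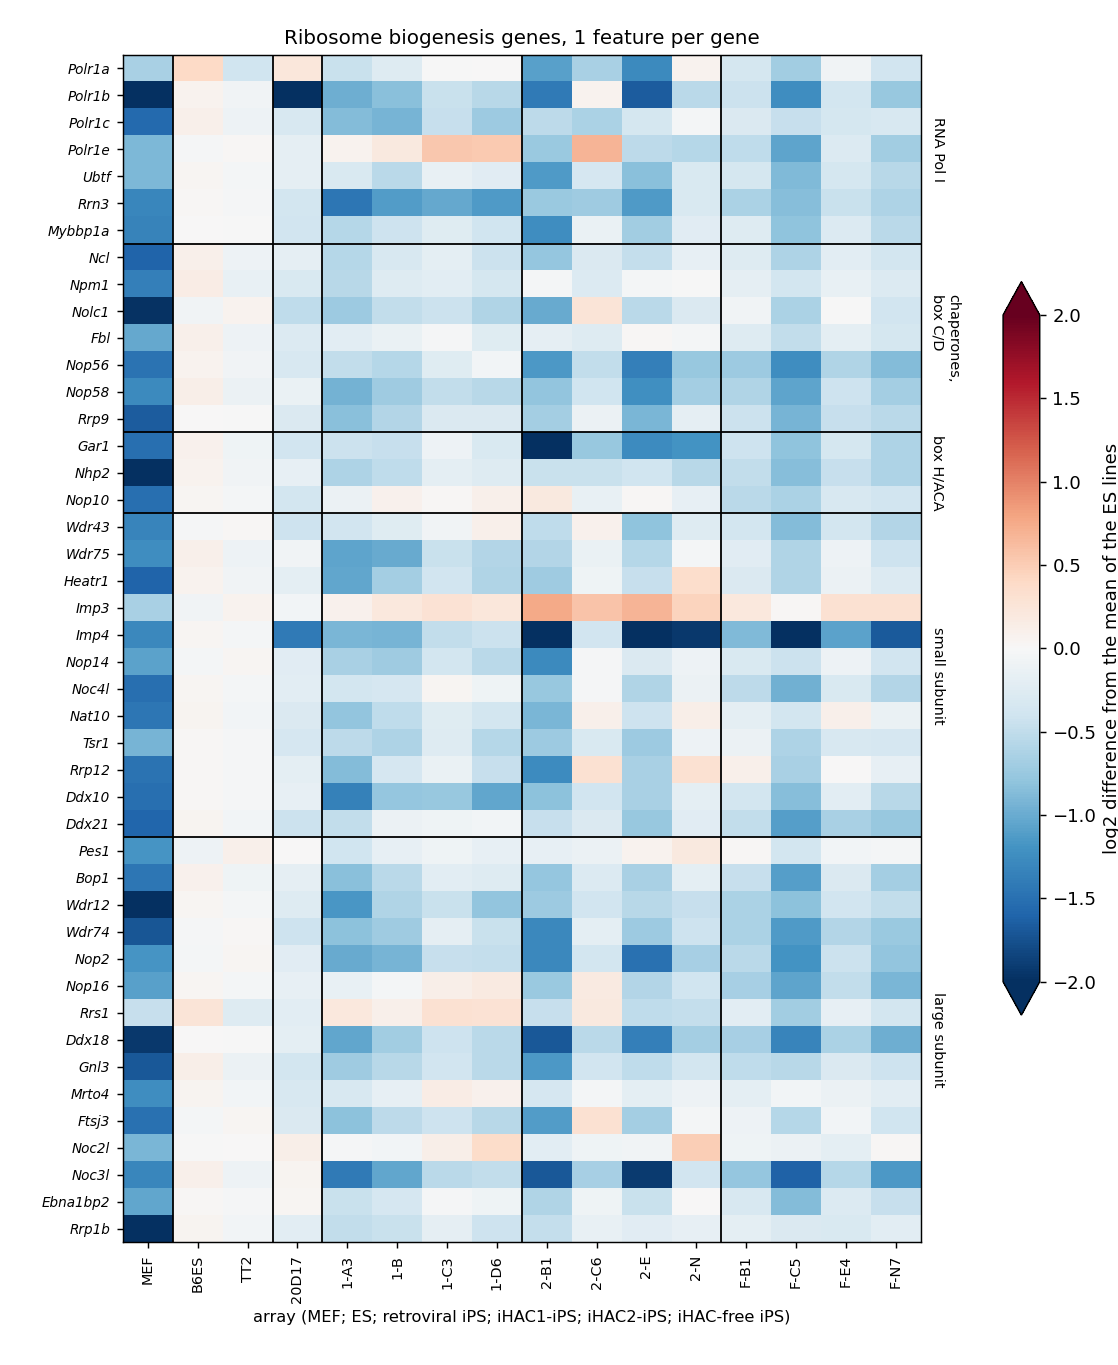
The 44 members (rows, by role) on the 16 arrays (columns, by group); colour is the log2 difference from the mean of the ES lines, blue below and red above, and the scale ends at 2 on both sides. MEF is below ES for all 44 members, the HAC-derived clones are paler blue for most of them, and Imp3 is the one row that is above the ES mean in all 12 of these clones.

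Within each group, the order of the clones by members and by the Myc coding feature was not the same in every group. Among the iHAC2-iPS clones, 2-B1 had the lowest Myc coding signal (2.00) and the lowest member median (-0.74), and 2-C6 the highest of both (4.38 and -0.18). Among the iHAC1-iPS clones, 1-A3 had the highest Myc coding signal (5.61) and the lowest member median (-0.59). Among the iHAC-free clones, F-C5 had the lowest of both (-2.12 and -0.80). The gap between features of 1 gene was set beside the members too. Over 2717 genes with features at least 500 bases apart, the SD of the difference between the upstream and the downstream feature was 0.66, 0.51, 0.46 and 0.55 in iHAC1-iPS, 0.74, 0.50, 0.68 and 0.65 in iHAC2-iPS and 0.39, 0.57, 0.38 and 0.51 in iHAC-free iPS. In each group the clone with the lowest member median (1-A3, 2-B1 and F-C5) had the highest SD, and in iHAC2-iPS and iHAC-free iPS the order of all 4 clones was the same by both measures. The part of this in the members' values was not tested. With 4 clones a group and groups that form separate clusters in Myc, no correlation was computed.

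**Figure D3:**
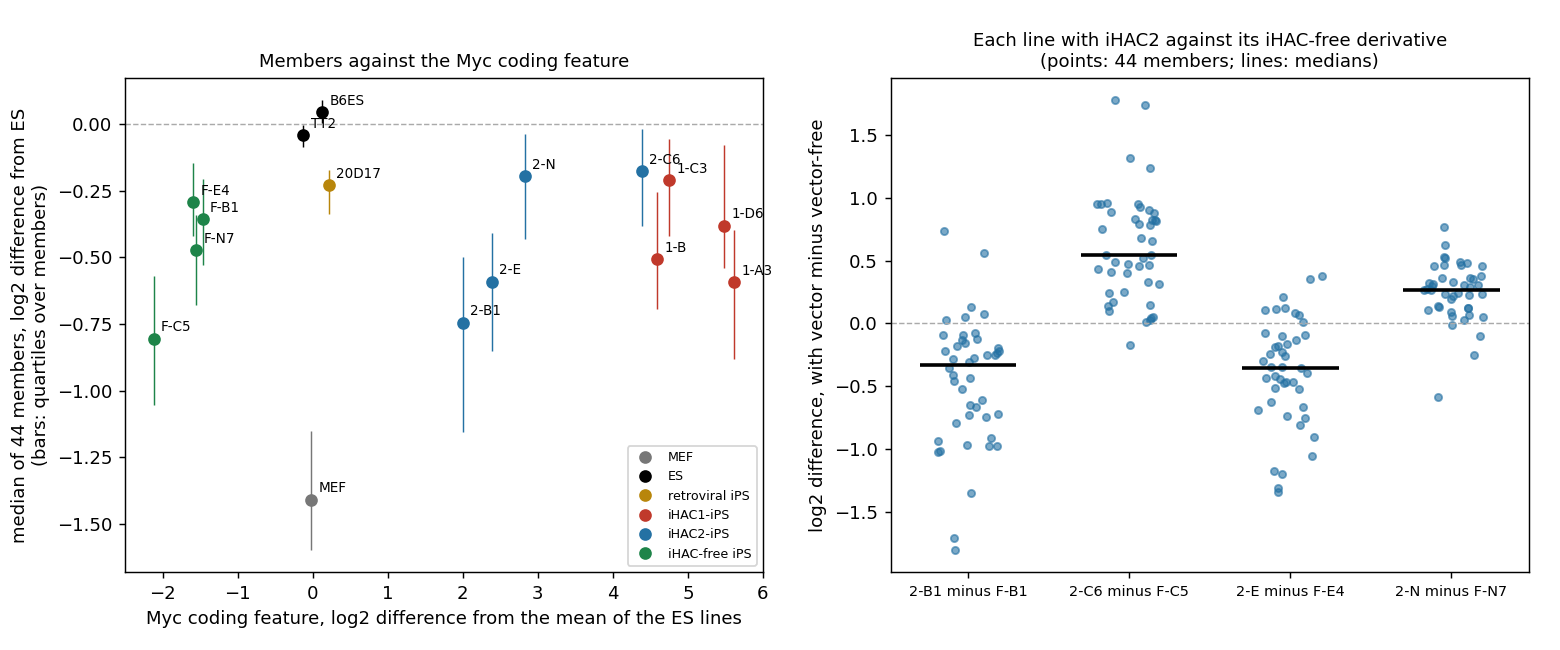
Left, the median of the 44 members (y axis, log2 difference from ES; bars are the quartiles over members) against the Myc coding feature (x axis, log2 difference from ES) on each array; the iHAC1-iPS, iHAC2-iPS and iHAC-free clones have overlapping ranges on the y axis and separate ranges on the x axis. Right, the log2 difference of each member between an iHAC2-iPS clone and its iHAC-free derivative, with the median as a line; 2 lines are above 0 (0.54 and 0.27) and 2 below (-0.33 and -0.35).

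Loss of the iHAC2 vector left no member called. The comparison of iHAC2-iPS with iHAC-free iPS asks what changes when the vector, and with it the reprogramming factors and the hairpin against p53, is gone. Over the 44 members the median log2 difference was -0.02, with 20 positive and 24 negative, against 0.04 over all tested features. limma called 0 members higher and 0 lower, where it called 0.433% of all tested features higher and 0.729% lower. At an unadjusted p below 0.05, 3 members passed: Nop10 (0.45), Imp3 (0.40) and Gar1 (-0.81). Their limma adjusted p-values were 0.108, 0.125 and 0.143. How many of all features passed the unadjusted p was not set beside this count. The 95% confidence interval lay within a 2-fold change in both directions for 42 of the 44 members, and it never reached 2-fold higher with the vector (highest upper bound 0.96, for Polr1e). The exceptions were Gar1, from -1.36 to -0.26, and Imp4, from -1.26 to 0.57. A typical interval was ± 0.43 wide (median over members).

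**Figure D4:**
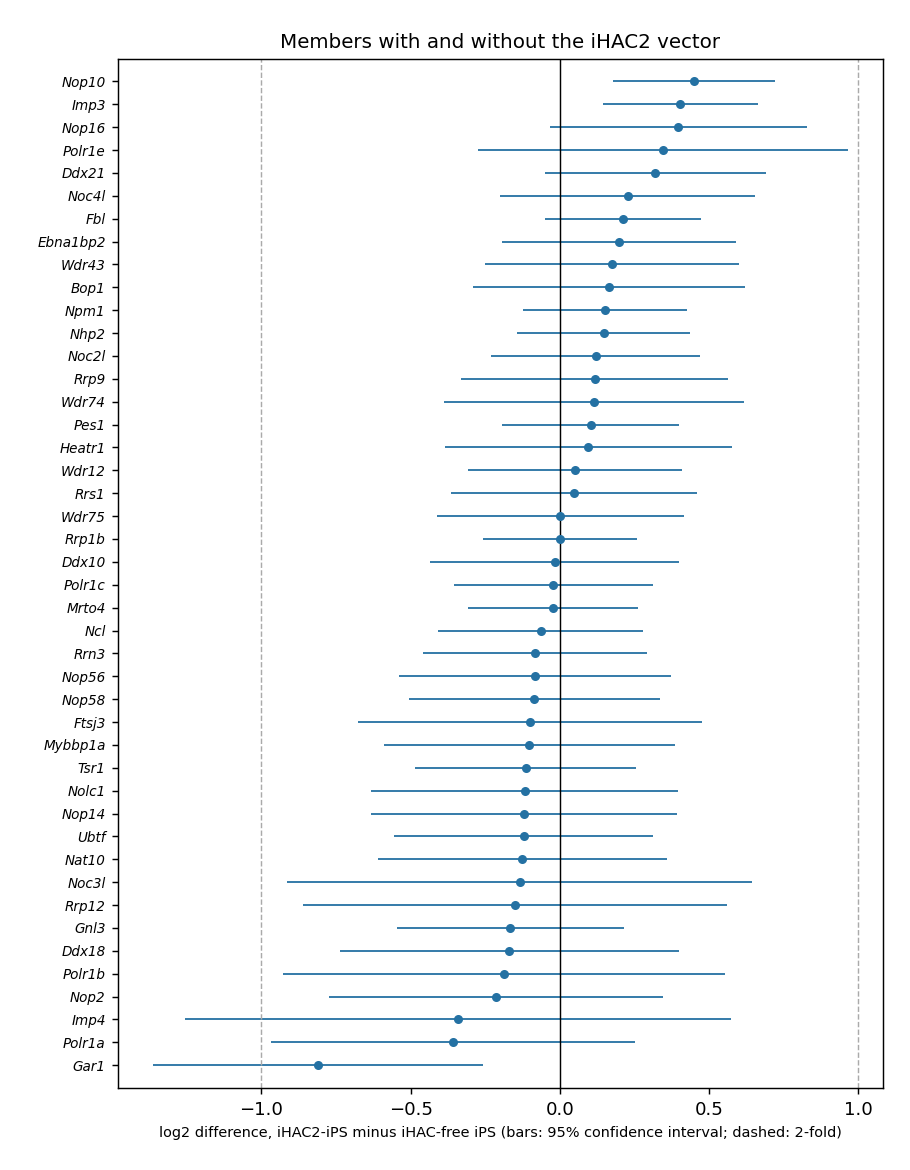
The log2 difference between iHAC2-iPS and iHAC-free iPS for each member (n = 4 and 4), sorted; bars are 95% confidence intervals from the limma fit and dashed lines mark 2-fold. Of the 44 intervals, 42 lie between the dashed lines, and those of Gar1 and Imp4 cross the lower one.

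Taken line by line, most members differed the same way within a line and in opposite directions between lines. In 2-C6 against F-C5, 43 of the 44 members were higher with the vector, with a median of 0.54. In 2-N against F-N7, 40 were higher, with a median of 0.27. In 2-B1 against F-B1, 38 were lower, with a median of -0.33, and in 2-E against F-E4, 35 were lower, with a median of -0.35. The Myc coding feature was higher with the vector in all 4 lines, by 6.50, 4.38, 3.46 and 3.98 in the same order. The median over all features above background stayed between 0.02 and 0.05 in these pairs. Within slides the medians were 0.11 on the slide with lines C and E and -0.07 on the slide with lines B and N, and neither slide held lines of 1 direction only. Summary values of each array were set beside the same lines. The SD of the gap between upstream and downstream features (given by clone above) was 0.74 in 2-B1 against 0.39 in F-B1 and 0.68 in 2-E against 0.38 in F-E4, the lines where members were lower with the vector, 0.50 in 2-C6 against 0.57 in F-C5, and 0.65 in 2-N against 0.51 in F-N7. With the vector, the SD was higher and most members lower in the lines of 2-B1 and 2-E. Both were higher in the line of 2-N, and in that of 2-C6 the SD was lower and most members higher. The share of spots well above background was 54.2% against 61.9%, 59.9% against 63.0%, 57.4% against 59.4% and 56.7% against 60.1% in the same lines. This share was lower with the vector in all 4 lines. The part of these in the members' values was not tested. With 1 array per clone, the line values carry no test.

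Against ES, the members were lower as a group in all 3 kinds of HAC-derived clone, with few single calls. In iHAC1-iPS, 38 of the 44 members had a negative difference, and the median was -0.43 where that of all tested features was 0.04. limma called 5 members lower (10.6% of all tested features were called lower) and 0 higher (10.7% higher). At an unadjusted p below 0.05, 13 passed, all of them lower. In iHAC2-iPS, 42 of 44 were negative with a median of -0.42, and 5 were called lower (5.73% of all features) and 1 higher (6.04%). In iHAC-free iPS, 43 of 44 were negative with a median of -0.48, and limma called 0 in either direction (0.277% of all features lower and 0.22% higher), while 19 passed an unadjusted p below 0.05, all of them lower. The share of members called lower in iHAC1-iPS was near that of all features. The slide was modelled in 2 ways. As a fixed term it gave 0 calls in iHAC1-iPS, where the comparison then rested on 1-D6. As a random block (correlation within slides -0.119) it gave 12 calls in iHAC2-iPS and 3 in iHAC-free iPS. Leaving out B6ES or TT2 left 1 or 2 calls in iHAC1-iPS and 0 in iHAC2-iPS. All 4 clones lay below both ES lines for 30 members in iHAC1-iPS, 21 in iHAC2-iPS and 35 in iHAC-free iPS, and all 12 clones did so for 20. Shares of all features that lay so, or that passed an unadjusted p below 0.05, were not set beside these counts. The counts therefore only describe the members. These comparisons rest on 2 ES lines, which lay on the same slide. On that slide the only HAC-derived clone, 1-D6, had a member median of -0.38 and was below both ES lines for 34 members.

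MEF, from which such clones are made, had the lowest levels. All 44 members were below both ES lines in the MEF array, by -0.46 (Rrs1) to -2.31 (Rrp1b), 37 of them by at least 2-fold, and for 33 members MEF was the lowest of the 16 arrays. In all 4 iHAC1-iPS clones, 42 members were above MEF, and the exceptions Rrn3 and Noc3l were below it in 1-A3. The median difference from MEF was 0.79 in 1-A3, 0.95 in 1-B, 1.21 in 1-C3 and 1.05 in 1-D6. In 20D17, 36 members were below both ES lines. Of these, 2 were lower by more than 2-fold, Polr1b (-2.30) and Imp4 (-1.42). With 1 array each, MEF and 20D17 carry no test. Their counts were not set beside shares over all features.

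Signs of cell state moved beside the members, and their part in these values was not tested. Of the 10 pluripotency markers, 8 had a tested feature (Nanog and Fgf4 did not match by name). Their median was -8.23, -4.92, -3.91 and -7.35 in the iHAC1-iPS clones, -0.68, -1.30, -1.31 and 0.09 in the iHAC2-iPS clones, and between -0.16 and 0.05 in the iHAC-free clones. Of these 8, 6 were called lower than ES in iHAC1-iPS and 1 higher, by 2.80. In the iHAC1-iPS clones Esrrb stood between -10.65 and -6.14 and Dppa3 between -11.35 and -8.28, beside MEF levels of -10.86 and -9.35, so that the label iPS was not matched by Esrrb and Dppa3 there. The paper reports Nanog and Oct4 staining, alkaline phosphatase activity and differentiating embryoid bodies for iHAC1-iPS lines, and regards them as only partially reprogrammed. Pou5f1 and Sox2 are also vector genes. All 12 fibroblast markers were tested, and their median was 2.27 in MEF, 1.01 to 1.96 in iHAC1-iPS, -0.18 to 1.63 in iHAC2-iPS, 0.67 to 1.55 in iHAC-free iPS, 1.57 in 20D17, and -0.72 and 0.72 in B6ES and TT2. Of them 5 were called higher in iHAC1-iPS against ES and 0 in iHAC2-iPS or iHAC-free iPS against ES. Of all tested features, 10.7% were called higher and 10.6% lower than ES in iHAC1-iPS. The shares were 6.04% and 5.73% in iHAC2-iPS and 0.22% and 0.277% in iHAC-free iPS, and they apply to the cell cycle counts below too. In bulk RNA, fewer cells of a type and less RNA per cell cannot be told apart. The 18 cell cycle genes had a median of -0.34 in iHAC1-iPS (4 called lower, among them Mcm3 at -1.04 and Ccnb1 at -0.79; 0 higher), 0.00 in iHAC2-iPS (1 higher, 1 lower) and -0.10 in iHAC-free iPS (0 called).

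Among the genes of RNA polymerase I transcription, Rrn3, the factor that brings RNA polymerase I to the ribosomal DNA promoter, had the largest difference of the members in iHAC1-iPS. Its feature (transcript base 3424, chr16:13814761-13814820 in mm9) stood at -1.44, -1.11, -1.02 and -1.13 in iHAC1-iPS, -0.73, -0.71, -1.13 and -0.31 in iHAC2-iPS and -0.64, -0.86, -0.44 and -0.61 in iHAC-free iPS, with the ES lines at 0.02 and -0.02. MEF stood at -1.30, within the range of the iHAC1-iPS clones, and 20D17 at -0.37. All 12 clones lay below ES. The difference from ES was -1.18 ± 0.21 in iHAC1-iPS (SE, n = 4 and 2, limma adjusted p = 0.00276) and -0.72 ± 0.21 in iHAC2-iPS (SE, n = 4 and 2, limma adjusted p = 0.0468), and iHAC1-iPS was lower than iHAC-free iPS by -0.54 ± 0.17 (SE, n = 4 and 4, limma adjusted p = 0.0283). Polr1c, a subunit shared by RNA polymerases I and III, was at -0.86, -0.93, -0.47 and -0.72 in the iHAC1-iPS clones, -0.52, -0.63, -0.35 and -0.03 in iHAC2-iPS and -0.29, -0.46, -0.36 and -0.33 in iHAC-free iPS, and in iHAC1-iPS it was called lower than ES (-0.74 ± 0.19, SE, n = 4 and 2, limma adjusted p = 0.0157). Polr1e, a subunit particular to RNA polymerase I, had the largest positive difference in iHAC1-iPS. It stood at 0.06, 0.20, 0.53 and 0.52 there, at -0.74, 0.68, -0.52 and -0.57 in iHAC2-iPS and at -0.50, -1.06, -0.27 and -0.70 in iHAC-free iPS. It was called higher in iHAC1-iPS than in iHAC-free iPS (0.96 ± 0.28, SE, n = 4 and 4, limma adjusted p = 0.0198), with no overlap between those groups, and its difference of 0.33 from ES was not called. Polr1a and Polr1b, the catalytic subunits, Ubtf, the activator of ribosomal RNA genes, and Mybbp1a, a Myb-binding nucleolar protein, were called in none of the 6 comparisons. Polr1b was at -2.30 in 20D17, close to MEF (-2.14), while its iHAC1-iPS values ran from -0.98 to -0.44.

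All 7 nucleolar chaperones and box C/D proteins were negative against ES in all 3 groups, with medians of -0.38, -0.42 and -0.36 in iHAC1-iPS, iHAC2-iPS and iHAC-free iPS. Nop56, a core protein of the box C/D particles, was the only member of this role called by the feature used. Its feature stood at -0.49, -0.57, -0.25 and -0.06 in iHAC1-iPS, -1.16, -0.49, -1.37 and -0.76 in iHAC2-iPS and -0.72, -1.24, -0.61 and -0.87 in iHAC-free iPS. The difference of iHAC2-iPS from ES was -0.94 ± 0.26 (SE, n = 4 and 2, limma adjusted p = 0.0365). Its second feature, on a different transcript, read the opposite, as given further on. Ncl and Npm1, the abundant nucleolar chaperones nucleolin and nucleophosmin, differed from ES by -0.38 and -0.34 in iHAC1-iPS, with no call, and iHAC2-iPS differed from iHAC-free iPS by -0.06 and 0.15 in them, also uncalled. Another feature of Ncl, at base 7975, was called higher in iHAC1-iPS than in iHAC-free iPS (1.20, limma adjusted p = 0.0282). Fbl, the methyltransferase of the box C/D particles, Nop58, Nolc1 and Rrp9 were not called in any comparison.

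The box H/ACA proteins guide pseudouridylation of ribosomal RNA and also sit in telomerase, and they differed among themselves. Gar1 stood in the iHAC2-iPS clones at -2.22, -0.75, -1.26 and -1.20, against -0.42, -0.80, -0.35 and -0.62 in iHAC-free iPS, -0.42, -0.47, -0.11 and -0.30 in iHAC1-iPS and -1.51 in MEF. It was called lower than ES (-1.36 ± 0.31, SE, n = 4 and 2, limma adjusted p = 0.022) and lower than iHAC1-iPS (1.03 ± 0.25 for iHAC1-iPS against iHAC2-iPS, SE, n = 4 and 4, limma adjusted p = 0.00828). Against iHAC-free iPS the difference of -0.81 ± 0.25 was not called (SE, n = 4 and 4, limma adjusted p = 0.143), and the groups overlapped through 2-C6 and F-C5. Nop10 was near ES in the clones with a vector, at -0.12, 0.08, 0.03 and 0.10 in iHAC1-iPS and 0.19, -0.15, 0.03 and -0.16 in iHAC2-iPS, and stood at -0.55, -0.64, -0.32 and -0.38 in iHAC-free iPS. It was 1 of the 2 members whose 4 iHAC2-iPS values were all above the 4 iHAC-free values, the other being Imp3. The share of all features with such an order was not set beside this count. iHAC1-iPS exceeded iHAC-free iPS in Nop10 by 0.50 ± 0.13 (SE, n = 4 and 4, limma adjusted p = 0.00878). Nhp2 was between -0.84 and -0.19 in all 12 clones with no call.

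Among the small subunit factors, Imp3 and Imp4 are partners in the complex that binds the U3 small nucleolar RNA, and they went in opposite directions. Imp3 stood at 0.08, 0.21, 0.29 and 0.23 in iHAC1-iPS, 0.76, 0.57, 0.69 and 0.44 in iHAC2-iPS and 0.21, 0.02, 0.31 and 0.31 in iHAC-free iPS. It was the only member called higher than ES in iHAC2-iPS (0.62 ± 0.15, SE, n = 4 and 2, limma adjusted p = 0.0246), and it was called lower in iHAC1-iPS than in iHAC2-iPS (-0.41 ± 0.12, SE, n = 4 and 4, limma adjusted p = 0.018). Imp4 stood at -0.91, -0.93, -0.50 and -0.43 in iHAC1-iPS, -2.59, -0.39, -2.25 and -1.94 in iHAC2-iPS, -0.88, -2.16, -1.07 and -1.68 in iHAC-free iPS and -1.42 in 20D17. The 2-C6 clone stood apart from the other iHAC2-iPS clones, and its derivative F-C5 was the lowest of the iHAC-free clones. The difference of iHAC2-iPS from ES was -1.79 ± 0.51 (SE, n = 4 and 2, limma adjusted p = 0.0435), a fold of 3.46. Ddx10, an RNA helicase, was at -1.35, -0.77, -0.75 and -1.05 in iHAC1-iPS, -0.82, -0.38, -0.65 and -0.20 in iHAC2-iPS and -0.36, -0.85, -0.21 and -0.55 in iHAC-free iPS. It was called lower than ES in iHAC1-iPS (-0.98 ± 0.24, SE, n = 4 and 2, limma adjusted p = 0.0126). Wdr75, of the U3-associated transcription complex, was at -1.05, -1.01, -0.45 and -0.59 in iHAC1-iPS, -0.58, -0.14, -0.58 and -0.04 in iHAC2-iPS and -0.22, -0.60, -0.11 and -0.41 in iHAC-free iPS. It was also called lower than ES in iHAC1-iPS (-0.78 ± 0.23, SE, n = 4 and 2, limma adjusted p = 0.0334). Ddx21, a helicase that links RNA polymerase I with processing, was at -0.49, -0.11, -0.09 and -0.05 in iHAC1-iPS and at -0.49, -1.11, -0.65 and -0.75 in iHAC-free iPS, a called difference of 0.56 ± 0.17 (SE, n = 4 and 4, limma adjusted p = 0.0214). Its other features gave -0.29 and 0.13 there without a call, so that the sign depends on the feature. The other 7 members of this role, Wdr43, Heatr1, Nop14, Noc4l, Nat10, Tsr1 and Rrp12, were not called in any comparison by the feature used. The second feature of Nop14 was called lower in iHAC1-iPS than in ES (-0.62), iHAC2-iPS (-0.99) and iHAC-free iPS (-0.78). That of Ddx10 was called lower in iHAC1-iPS than in iHAC2-iPS (-0.91) and iHAC-free iPS (-0.80), where the feature used was not called.

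Of the 15 large subunit factors, 12 were negative in iHAC1-iPS against ES, 14 in iHAC2-iPS and 15 in iHAC-free iPS. The Pes1, Bop1 and Wdr12 proteins form the PeBoW complex, and of these Wdr12 was called lower in iHAC1-iPS, at -1.16, -0.60, -0.44 and -0.79 against -0.72, -0.39, -0.55 and -0.46 in iHAC2-iPS and -0.63, -0.82, -0.39 and -0.49 in iHAC-free iPS (-0.75 ± 0.20, SE, n = 4 and 2, limma adjusted p = 0.021). Bop1 and Pes1 differed from ES there by -0.46 and -0.21, without a call. Ddx18, a helicase, stood at -1.69, -0.53, -1.37 and -0.68 in iHAC2-iPS and was called lower than ES (-1.07 ± 0.32, SE, n = 4 and 2, limma adjusted p = 0.0493). Noc3l, a large subunit assembly factor, had the largest difference of this role. It stood at -1.41, -1.04, -0.53 and -0.50 in iHAC1-iPS, -1.69, -0.66, -1.91 and -0.38 in iHAC2-iPS and -0.78, -1.61, -0.57 and -1.15 in iHAC-free iPS, a difference from ES of -1.16 in iHAC2-iPS that was not called (limma adjusted p = 0.0977), with 2-N near ES and 2-E far below. Rrs1, an assembly factor of the 5S particle, stood at 0.22, 0.11, 0.31 and 0.29 in iHAC1-iPS, -0.46, 0.19, -0.51 and -0.47 in iHAC2-iPS and -0.21, -0.69, -0.16 and -0.37 in iHAC-free iPS. It was called higher in iHAC1-iPS than in iHAC2-iPS (0.54 ± 0.19, SE, n = 4 and 4, limma adjusted p = 0.0402), a call lost without any 1 of the iHAC1-iPS clones, without 2-B1, 2-E or 2-N and with only these groups in the fit, and than in iHAC-free iPS (0.59 ± 0.19, SE, n = 4 and 4, limma adjusted p = 0.0287). Nop16, a Myc-induced nucleolar protein, was at -0.15, -0.04, 0.12 and 0.19 in iHAC1-iPS, -0.74, 0.18, -0.58 and -0.40 in iHAC2-iPS and -0.66, -1.05, -0.49 and -0.92 in iHAC-free iPS, a called difference of 0.81 ± 0.20 (SE, n = 4 and 4, limma adjusted p = 0.00725). Noc2l, a partner of Noc3l, was at -0.03, -0.06, 0.11 and 0.36 in iHAC1-iPS, -0.21, -0.09, -0.07 and 0.49 in iHAC2-iPS and -0.09, -0.12, -0.19 and 0.03 in iHAC-free iPS, without a call. The remaining Wdr74, Nop2, Gnl3, Mrto4, Ftsj3, Ebna1bp2 and Rrp1b were not called in any comparison by the feature used. The second feature of Ebna1bp2 was called higher in iHAC1-iPS than in iHAC-free iPS (0.72, limma adjusted p = 0.016), where the first gave 0.26. Gnl3 (nucleostemin, known from stem cells) was between -0.71 and -0.38 in iHAC1-iPS.

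Members were called in both directions when iHAC1-iPS was set against the clones of the second session. iHAC1-iPS against iHAC2-iPS gave 3 members higher (Gar1, Nop56 and Rrs1) and 1 lower (Imp3), where 18.2% of all tested features were called higher and 19.5% lower, and the member median was 0.06. iHAC1-iPS against iHAC-free iPS gave 5 higher (Polr1e, Nop16, Rrs1, Ddx21 and Nop10) and 1 lower (Rrn3), where 19.2% were called higher and 18.0% lower, and the member median was 0.07. These comparisons cross the sessions, which cannot be told apart from the vectors. Of the 21 member calls in the 6 comparisons, 18 were lost under at least 1 other processing, block, choice of groups or left-out array, and the exceptions were Gar1 in iHAC1-iPS against iHAC2-iPS and Nop10 and Nop16 in iHAC1-iPS against iHAC-free iPS.

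Single arrays decided many of these calls. Against ES, Rrn3 in iHAC1-iPS was called without any single array, while Ddx10 and Wdr12 were lost without either ES line, Polr1c without B6ES, and Wdr75 without either ES line, 1-A3 or 1-B. In iHAC2-iPS all 6 calls against ES were lost without either ES line. Those of Nop56, Ddx18 and Rrn3 were also lost without 2-B1 or 2-E, and that of Imp4 without 2-B1, 2-E or 2-N. In iHAC1-iPS against iHAC2-iPS, Imp3 was lost without 1-A3 and Nop56 without 1-A3, 1-C3, 1-D6, 2-B1 or 2-E. In iHAC1-iPS against iHAC-free iPS, Polr1e was lost without 1-D6 or F-C5, Ddx21 without 1-C3, 1-D6 or F-C5, Rrn3 without 1-A3, 1-D6, F-B1, F-E4 or F-N7, and Rrs1 without 1-A3, 1-C3, 1-D6, F-C5 or F-N7.

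Genes with several features gave a further measure of how firmly a member's value holds. Of the 18 members with several tested features, 15 had features of opposite sign in at least 1 of the 6 comparisons. The largest spread between features of a gene was 1 or more on the log2 scale for 5 of these 15 (Rrn3, Nop56, Rrp1b, Ncl and Pes1) and under 1 for the other 10 (Noc2l, Tsr1, Ebna1bp2, Ddx10, Heatr1, Wdr43, Nolc1, Nop14, Ddx21 and Wdr12). The median spread over the 18 genes was 0.17 in iHAC1-iPS against ES and 0.16 in iHAC2-iPS against iHAC-free iPS, comparisons within a session, and 0.60 and 0.42 in iHAC2-iPS and iHAC-free iPS against ES, comparisons across sessions.

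The second feature of Rrn3 is named for a different cDNA sequence that maps near the gene's start, at chr16:13782336-13782395 in mm9. It stood at -1.19, -0.88, -1.56 and -1.60 in iHAC1-iPS, like the first feature, but at 0.15, 0.18, 0.08 and 0.73 in iHAC2-iPS and 0.14, 0.58, 0.30 and 0.60 in iHAC-free iPS. The decrease in iHAC1-iPS against ES was called by both (-1.30 ± 0.25 by the second, SE, n = 4 and 2, limma adjusted p = 0.00365), and that in iHAC2-iPS by the first only. Against iHAC2-iPS, iHAC1-iPS was called lower by the second feature (-1.59), where the first gave -0.46 without a call. The second feature of Nop56 (also from another cDNA sequence, chr2:130104489-130104548 in mm9) stood at -0.24, -0.50, -0.38 and -0.42 in iHAC1-iPS, -0.30, 0.34, 0.06 and 0.66 in iHAC2-iPS and 0.33, 0.29, 0.17 and 0.33 in iHAC-free iPS. In iHAC1-iPS against iHAC2-iPS the features of Nop56 were called in opposite directions (0.60, limma adjusted p = 0.0393, and -0.57, limma adjusted p = 0.0249), which happened for no other member. Against iHAC-free iPS, iHAC1-iPS was called lower by the second feature of Nop56 (-0.66), where the first gave 0.52 without a call. The direction of Nop56 therefore depends on the feature read.

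The downstream features of Pes1, Nop16 and Ncl set most of the second-session clones apart. The Pes1 feature at transcript base 2798 stood at -0.40, -0.94, -0.26 and 0.17 in iHAC1-iPS, -2.30, -0.51, -2.30 and -2.34 in iHAC2-iPS and -0.40, -2.47, -0.80 and -1.59 in iHAC-free iPS, while the feature at base 1822, used for the gene, stayed between -0.40 and 0.19 in all 12 clones. The Nop16 feature at base 1669 stood at 0.20, -0.37, 0.18 and 0.56 in iHAC1-iPS, -1.41, 0.58, -1.88 and -2.02 in iHAC2-iPS and -1.18, -2.07, -0.82 and -1.68 in iHAC-free iPS. The Ncl feature at base 7975 stood at 0.35, -0.45, 0.37 and 0.92 in iHAC1-iPS, -1.10, 0.52, -1.27 and -0.61 in iHAC2-iPS and -0.51, -1.27, -0.71 and -1.10 in iHAC-free iPS. The Ncl feature at base 2478 stood at -0.94, -0.63, -0.22 and -0.46 in iHAC1-iPS, -1.52, -0.35, -1.30 and -0.95 in iHAC2-iPS and -0.71, -1.72, -0.57 and -1.29 in iHAC-free iPS. The feature used for Ncl, at base 2004, stood at -0.57, -0.33, -0.19 and -0.43, at -0.78, -0.28, -0.47 and -0.17 and at -0.26, -0.61, -0.21 and -0.37 in the same groups, so that iHAC1-iPS was positive in 3 clones by one feature and negative in all 4 by the others. In the features of Pes1, Nop16 and Ncl that lay farthest downstream, 2-C6 was the highest iHAC2-iPS clone and F-C5 the lowest iHAC-free clone. Rrp1b, a large subunit factor that also binds chromatin, was read by 4 features. The one used for the gene, at base 1716, stood at -0.50, -0.45, -0.18 and -0.41 in iHAC1-iPS, -0.47, -0.15, -0.23 and -0.16 in iHAC2-iPS and -0.19, -0.30, -0.31 and -0.22 in iHAC-free iPS. The one from another cDNA sequence stood at 0.90, 0.19, 0.11 and 0.33, at 0.59, 0.06, 0.63 and 0.50 and at 0.32, 0.19, 0.16 and 0.31 in the same groups, positive in every clone. The SD of the gap between upstream and downstream features over 2717 genes, given by clone above, was 0.63 in MEF, 0.30 in 20D17 and 0.15 in either ES line, against whose mean these values are taken.

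**Figure D5:**
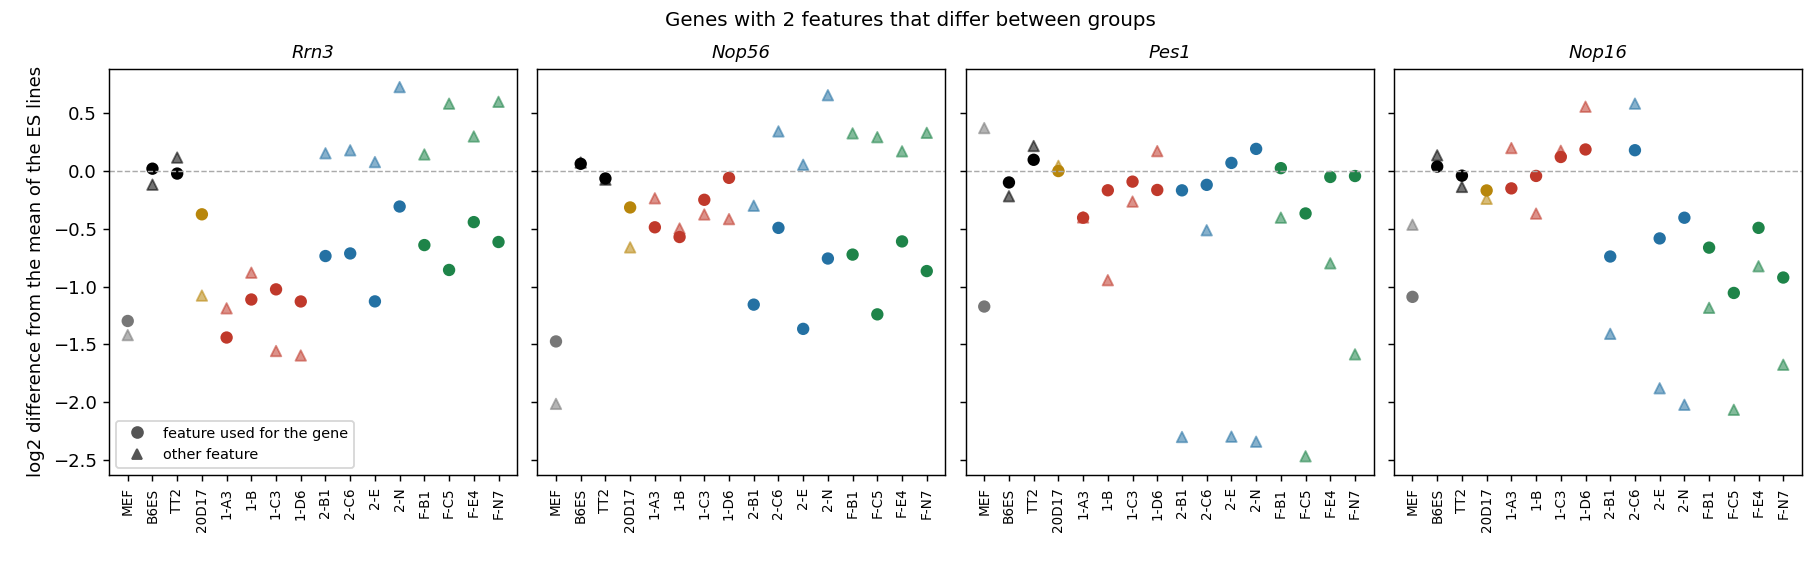
Rrn3, Nop56, Pes1 and Nop16, each read by 2 features on the 16 arrays; the y axis is the log2 difference from the mean of the ES lines, circles are the feature used for the gene and triangles the other one, and colours are the groups as in the plot of Myc. The features of Rrn3 and Nop56 lie on opposite sides of 0 in the iHAC-free clones, and the second feature of Pes1 reaches -2.47 where the first stays near 0.

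Genes of the same pathway outside the 44 were read too. Of 83 further ribosome biogenesis genes, 80 matched a tested feature, among them exosome, UTP and late assembly factors. Their median difference from ES was -0.44 in iHAC1-iPS (15 called lower, 1 higher, beside 10.6% and 10.7% of all features), -0.46 in iHAC2-iPS (10 lower, 0 higher, beside 5.73% and 6.04%) and -0.51 in iHAC-free iPS (1 lower, 0 higher, beside 0.277% and 0.22%). It was 0.01 for iHAC2-iPS against iHAC-free iPS, where limma called 0 and 6 passed an unadjusted p below 0.05. How many of all features passed that unadjusted p was not set beside this count. In iHAC1-iPS against iHAC2-iPS 4 were called higher and 10 lower, beside 18.2% and 19.5% of all features. Nol8, a nucleolar protein, was lower in iHAC1-iPS by -1.17 (limma adjusted p = 0.00272), Exosc5, of the RNA exosome, by -1.10 (limma adjusted p = 0.00137), and Ngdn, of the small subunit processome, was called lower than ES in all 3 groups (-0.97, -0.81 and -0.87). The single call upward was Tsr2 (0.98, limma adjusted p = 0.0443). The median over these 80 genes was -0.77, -0.14, -0.67 and -0.25 in the iHAC2-iPS clones, which ranks them as the 44 do.

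Ribosomal proteins are the products that these factors assemble. Over 83 genes the median against ES was -0.14 in iHAC1-iPS (73 negative), 0.08 in iHAC2-iPS (29 negative) and -0.16 in iHAC-free iPS (69 negative). Between iHAC2-iPS and iHAC-free iPS it was 0.25, with 76 of 83 positive, beside a median of 0.04 over all tested features. limma called 0, where it called 0.433% of all features higher and 0.729% lower. At an unadjusted p below 0.05, 24 passed in the positive direction and 2 in the negative. Shares of all features with a positive difference, or passing that unadjusted p, were not set beside these counts, which only describe the family. The genes of this family have many processed copies in the genome, and features may read more than 1 of them. Other known Myc targets (19 of 20 matched) had medians of -0.14, -0.32 and -0.46 against ES in iHAC1-iPS, iHAC2-iPS and iHAC-free iPS. Their median was 0.35 in iHAC1-iPS against iHAC-free iPS (6 called higher, 1 lower, beside 19.2% and 18.0% of all features). It was 0.19 in iHAC1-iPS against iHAC2-iPS (5 higher, 1 lower, beside 18.2% and 19.5%). Both comparisons cross the sessions. In iHAC2-iPS against iHAC-free iPS, within a session, it was 0.01. Odc1, of polyamine synthesis, was called lower in iHAC1-iPS (-0.93, limma adjusted p = 0.00347) and in iHAC2-iPS (-0.63, limma adjusted p = 0.0388). Shmt2, of mitochondrial one-carbon metabolism, was the only one called between iHAC2-iPS and iHAC-free iPS, higher with the vector by 0.71 (limma adjusted p = 0.0301). Ccnd2, a D-type cyclin, was called higher in iHAC1-iPS against ES (2.02, limma adjusted p = 0.00563). Nme1, a nucleoside diphosphate kinase, was called higher in iHAC1-iPS than in iHAC2-iPS (1.09, limma adjusted p = 0.0115).

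Of the 7 members with the motif, Rrn3 and Imp4 were called by the features used for the genes, each time as lower. Rrn3 was called in iHAC1-iPS and iHAC2-iPS against ES and in iHAC1-iPS against iHAC-free iPS. Imp4 was called in iHAC2-iPS against ES. The iHAC2-iPS calls of both were lost without either ES line. All other calls against ES were of members without the motif in their window, such as Ddx10 and Gar1. Pes1, Mybbp1a, Tsr1, Wdr43 and Nop2 were not called by the features used. The downstream feature of Pes1 was called higher in iHAC1-iPS than in iHAC2-iPS (1.50, limma adjusted p = 0.0309). Nop2, an RNA methyltransferase, differed from ES by -0.72 in iHAC1-iPS and -0.95 in iHAC2-iPS, and the difference of iHAC2-iPS from iHAC-free iPS was -0.21, with no call. Imp4 was at -1.79 against ES in iHAC2-iPS and differed from iHAC-free iPS by -0.34 ± 0.42 (SE, n = 4 and 4, limma adjusted p = 0.706).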

How the data were processed

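The 44 members and all gene lists were chosen with earlier results of these data known. The authors hybridised Cy3-labelled RNA (500 ng) to 1-colour arrays and normalized it in GeneSpring GX; per the file headers, Feature Extraction 10.7.1.1 and 10.7.3.1 gave the deposited intensity values (processed signal, background-corrected). Here log2 of that signal minus each array's 75th percentile was used. It matched the deposited log2 value table, made by the authors, with slopes of 0.9998 to 1 and r of at least 0.99994.

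limma 3.58.1 (R 4.3.3) fitted 6 groups over 31423 features well above background on at least 1 array, with Benjamini-Hochberg adjustment over all of them; no spot was saturated. The script was tested on simulated data: of 200 changed features, it recovered 41% at a log2 change of 1 and 69% at 2 in iHAC2-iPS against iHAC-free iPS. Alternatives were quantile and normexp processing, the deposited values, filters, blocks, subsets and left-out arrays. Values on every array were given for the largest differences of each role, the 5 largest in each direction in iHAC1-iPS against ES, and, by the planned rule, genes with disagreeing features; for 10 of these, with spreads under 1, not every second feature is printed. Same-origin iHAC2-iPS and iHAC-free deviations correlated at -0.219 to 0.08 (4 pairs). These clones share a line of origin, so the block by line was also run.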

Additional observations from a re-analysis of the deposited data

Results flagged for a closer look

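Among 141 groups of 4 clones, 4 held a clone that stood apart from the others, where chance gives about 1 in 20 groups, or 7.05. Of these clones, 3 were 2-C6 among the iHAC2-iPS clones. Polr1e was at 0.68 in 2-C6 and between -0.74 and -0.52 in the others. Rrs1 was at 0.19 in 2-C6 and between -0.51 and -0.46 in the others. Npm1 was at -0.27 in 2-C6 and between -0.05 and -0.00 in the others. The fourth was Ddx21 in 1-A3, at -0.49 with the other iHAC1-iPS clones between -0.11 and -0.05. 2-C6 also had the highest Myc coding signal of the iHAC2-iPS clones (4.38).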

How the results depend on the processing

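The member medians kept within the spread between clones under all alternatives. Leaving out 1 array gave medians of -0.50 to -0.34 in iHAC1-iPS against ES, -0.55 to -0.33 in iHAC2-iPS against ES, -0.54 to -0.39 in iHAC-free iPS against ES, -0.11 to 0.11 in iHAC2-iPS against iHAC-free iPS, -0.06 to 0.13 in iHAC1-iPS against iHAC2-iPS and -0.04 to 0.14 in iHAC1-iPS against iHAC-free iPS. The counts of members called were less stable, and the cause was not tested. With the slide as a fixed term the count was 0 (from 5) in iHAC1-iPS against ES, a comparison that then rested on 1-D6. With the slide as a random block (correlation within slides -0.119) the counts were 12 (from 6) in iHAC2-iPS and 3 (from 0) in iHAC-free iPS against ES. In that fit they were 8 (from 4) in iHAC1-iPS against iHAC2-iPS and 10 (from 6) in iHAC1-iPS against iHAC-free iPS. With the compared groups alone in the fit they were 3 and 0 in iHAC1-iPS and iHAC2-iPS against ES and 1 in iHAC1-iPS against iHAC2-iPS. With a 2-fold threshold added they were 1, 3, 1 and 0 in iHAC1-iPS against ES, iHAC2-iPS against ES, iHAC1-iPS against iHAC2-iPS and iHAC1-iPS against iHAC-free iPS. Quantile normalization left 2 in iHAC2-iPS against ES, a strict filter on dim features gave 1 in iHAC-free iPS against ES, and counting all features of a gene gave 8 and 11 in iHAC1-iPS against iHAC2-iPS and iHAC-free iPS. Leaving out 1 array gave 1 to 5 in iHAC1-iPS against ES (1 without B6ES, 2 without TT2), 0 to 11 in iHAC2-iPS against ES (0 without either ES line, 2 without 2-B1 or 2-E, 11 without 2-C6), 1 to 8 in iHAC1-iPS against iHAC2-iPS (1 without 1-A3, 2 without 1-D6, 8 without 2-C6) and 2 to 6 in iHAC1-iPS against iHAC-free iPS (2 without 1-D6). It gave 0 to 0 in iHAC-free iPS against ES and in iHAC2-iPS against iHAC-free iPS. Taking the feature nearest the 3' or the 5' end for each gene, chosen after seeing the data, moved no count by over 1.5 times. The replicate block by line of origin gave 0 calls and a median of -0.02 in iHAC2-iPS against iHAC-free iPS, and changed no call there. Of the 21 member calls, 18 were lost and 0 reversed under at least 1 of the other normalizations, filters, blocks, group choices or left-out arrays. The 3 others were Gar1, which also passed 2-fold, and Nop10 and Nop16, which did not.

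In simulated data with 200 of 31395 features changed, 22% of those changed by 1 on the log2 scale were recovered in iHAC1-iPS against ES. In the real comparison limma called 10.7% of all features higher and 10.6% lower. The simulated setting therefore differs from the data, and the 22% is not an estimate of the recovery there. Session and vector cannot be told apart across sessions.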
